A study of Mus musculus with 8 samples.

Results

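The 9 genes described here encode proteins that make the programmed DNA breaks of meiosis and carry out the first steps of their repair: *Spo11*, *Mei1*, *Mei4*, *Dmc1*, *Psmc3ip*, *Mnd1*, *Meiob*, *Spata22* and *Brca2*. They were chosen by name for their function, with earlier results of these data known. Counts and medians over them are therefore descriptive, and no test over the list was run. All 9 lie on autosomes and were among the 19462 protein-coding genes tested (22603 genes in the table). Their mRNA was measured by RNA-seq in pachytene spermatocytes sorted from mouse testis, in 2 *Setdb1* cKO and 2 wildtype samples. The cKO mice carried a floxed and a deleted *Setdb1* allele (flox/-) together with the *Ngn3*-Cre transgene and an EYFP reporter of Cre activity at *ROSA26*, so that the core of the catalytic SET domain was removed in germ cells from the spermatogonial stage onward and not in the somatic cells of the testis. The cKO cells came from mice at postnatal day 15 or later, with no age given per sample. The wildtype mice were at postnatal day 15 and carried no Cre. Both groups share the strain, given as C57BL/6 in the labels and C57BL/6J in the study's methods. Genotype cannot be told apart from Cre, the reporter and, where they differ, age. Per genotype, 500 cells were sorted, and whether its 2 samples came from separate animals is not stated. A p-value here therefore reflects the spread among these 4 libraries, and that spread may be technical. The test used (limma) also draws the spread of each gene toward that of genes at a like level. A p-value or interval of a gene therefore does not rest on its own replicates alone.

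In meiotic prophase, SPO11 cuts both strands of DNA in a topoisomerase-like reaction, and it needs MEI1, MEI4, REC114 and IHO1 on the chromosome axes to do so. The cut ends are resected to single-stranded tails, which are coated by RPA and by the complex of MEIOB and SPATA22. BRCA2 helps to load DMC1, a recombinase specific to meiosis, onto the tails, and the HOP2-MND1 heterodimer (HOP2 is the product of *Psmc3ip*) helps the filament invade the homologous chromosome. Breaks are made before pachynema and are repaired as it proceeds, and mice lacking any of several of these proteins arrest in meiosis.

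*Spata22* was the only one of the 9 genes whose level fell past the threshold in the *Setdb1* cKO (limma on log2(TPM + 1), adjusted p under 0.2 over all tested genes), and no member rose past it. Its transcript was 3.04-fold lower on average. By comparison, 217 of all 19462 tested genes, or 1.11%, were called lower and 678, or 3.48%, were called higher. At an unadjusted p under 0.05 (limma), 4 of the 9 genes were lower and 0 higher, beside 855 and 1788 of all tested genes. A fit without 1 cKO sample takes its spread from the wildtype pair alone and assumes that the lone cKO sample varies like that pair. Without cKO replicate 2 such a fit called 3 of the 9 genes lower, beside 1251 lower and 2586 higher over all tested genes, and without cKO replicate 1 it called 1 of the 9 lower, beside 136 lower and 534 higher. Both cKO samples lay below both wildtype samples for 6 of the 9 genes, against 18.1% of all tested genes. They lay above both for *Dmc1* alone, against 26.3% of all tested genes. The median log2 fold change of the 9 genes was -0.68 (-0.54 with cKO replicate 1 alone and -0.37 with cKO replicate 2 alone), and that of all tested genes was 0.08. Without wildtype replicate 1 the median of the 9 was -0.95, and without wildtype replicate 2 it was -0.29. Because the samples are bulk RNA, fewer cells of a stage and less RNA per cell cannot be told apart.

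**Figure D1:**
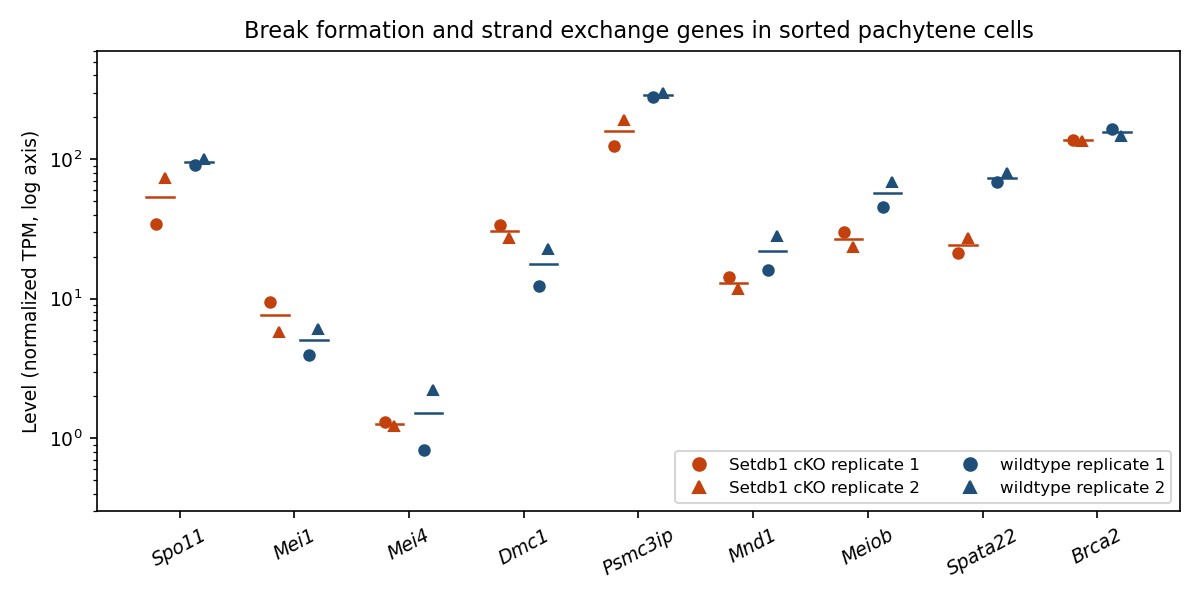
Level of each of the 9 genes in every sample, in normalized TPM on a log axis, with *Setdb1* cKO samples (orange) left of wildtype samples (blue); circles are replicate 1, triangles replicate 2 and bars the mean of the 2 samples. *Spata22* lies at 21.3 and 27.1 TPM in cKO against 68.1 and 79.0 TPM in wildtype, and *Dmc1* is the only gene with both cKO samples above both wildtype samples.

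The promoters of the 3 genes that bracket the result are shown first: *Spata22*, the only call, *Psmc3ip*, the member with the highest level, and *Dmc1*, the member that lay on the other side of wildtype. SETDB1 and the polycomb complex PRC1.6, which contains E2F6 and the MGA-MAX dimer, are both known to keep germline genes silent in embryonic stem cells. The letters searched were therefore TCCCGC for E2F6 and CACGTG for MGA-MAX, with CGCATGCG for NRF1 and TAACNG or CAACNG for the MYB family, each on both strands and none overlapping another in the windows printed. Each sequence is the 250 bases before the RefSeq start of the gene (GRCm38.p6, read 5′ to 3′ on the strand of the gene), at chr11:73329491-73329740, plus strand for *Spata22*, chr11:101095436-101095685, minus strand for *Psmc3ip* and chr15:79605110-79605359, minus strand for *Dmc1*. Capitals mark the E2F6 letters and, in *Psmc3ip*, also a MYB match (TAACAG, 210 bases before the start).
Spata22: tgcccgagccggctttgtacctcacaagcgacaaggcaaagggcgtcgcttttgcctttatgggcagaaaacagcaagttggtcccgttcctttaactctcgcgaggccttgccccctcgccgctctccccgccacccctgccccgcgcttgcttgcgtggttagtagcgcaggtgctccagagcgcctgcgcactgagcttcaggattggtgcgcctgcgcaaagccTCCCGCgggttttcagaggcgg
Psmc3ip: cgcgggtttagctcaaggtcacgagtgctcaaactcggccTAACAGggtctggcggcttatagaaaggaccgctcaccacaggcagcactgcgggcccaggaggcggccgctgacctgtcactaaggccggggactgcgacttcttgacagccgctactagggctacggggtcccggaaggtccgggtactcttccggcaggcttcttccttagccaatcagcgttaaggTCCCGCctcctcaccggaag
Dmc1: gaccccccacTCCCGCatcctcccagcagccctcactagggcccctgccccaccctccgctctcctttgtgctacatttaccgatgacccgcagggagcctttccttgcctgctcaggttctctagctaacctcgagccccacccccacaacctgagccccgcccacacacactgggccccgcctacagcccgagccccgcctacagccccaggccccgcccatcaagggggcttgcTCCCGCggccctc

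The E2F6 letters began 22 bases before the start of *Spata22*, 20 bases before that of *Psmc3ip*, and 240 and 13 bases before that of *Dmc1*. A window was at hand for 7 of the 9 genes (not for *Spo11* and *Meiob*), and 4 of these 7 held the letters, the other being *Brca2* (168 bases before the start). Over all promoters of the table, 16.9% of 32851 windows held them, and among promoters of the tested genes 24.2% of 18053. *Mei1*, *Mei4* and *Mnd1* held none. The window of *Mei1* (chr15:82082226-82082475) lies inside the GENCODE span of the gene (chr15:82069996-82126814, plus strand). It therefore does not cover the bases before the GENCODE start, and its letters and CpG count do not describe them. The MYB letters were in 2 of the 7 (*Psmc3ip* and *Mei4*) against 43.1% of all windows, and CACGTG and CGCATGCG were in 0 of the 7, against 6.02% and 1.55%. The number of CpG dinucleotides in the window ran between 8 for *Mei1* and *Mnd1* and 22 for *Spata22*, with 19 for *Psmc3ip*, 18 for *Brca2* and 12 for *Dmc1* and *Mei4*, where the median was 6 over all windows and 12 over those of tested genes. The genes with E2F6 letters included the member that was called lower, the one that lay above wildtype and *Brca2*, whose level differed little. A match to these letters describes the sequence and shows no binding.

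*Spo11* (GRCm38 chr2:172977700-172993576) encodes the catalytic subunit that makes the breaks. Its level was 34.4 and 73.6 TPM in the cKO samples, against 90.7 and 100.1 TPM in the wildtype samples. The wildtype samples lay close together and both cKO samples lay below them, replicate 1 far more so. The log2 fold change was -0.91 (SE 0.377, 95% interval -1.80 to -0.01), which missed the threshold (limma adjusted p = 0.365). With cKO replicate 1 alone the log2 fold change was -1.44 (limma adjusted p = 0.0439) and with cKO replicate 2 alone it was -0.37 (0.522), both from fits whose spread is that of the wildtype pair, so the size of the difference rests on replicate 1.

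*Mei1* and *Mei4*, whose products act with SPO11 on the chromosome axes, were the least abundant of the 9 genes. *Mei1* (chr15:82069996-82126814) was measured at 9.49 and 5.75 TPM in the cKO samples and 3.96 and 6.08 TPM in the wildtype samples. The groups overlapped, with the log2 fold change at 0.51 and its 95% interval running between -0.67 and 1.68. Under quantile normalization it was 0.14, with cKO replicate 2 alone 0.19 and without wildtype replicate 1 0.25. *Mei4* (chr9:81863670-82206007) was measured at 1.30 and 1.23 TPM in the cKO samples and 0.820 and 2.23 TPM in the wildtype samples. Both cKO values lay between the 2 wildtype values, and the log2 fold change of -0.10 had an interval of -1.13 to 0.93. At levels this low the log2(TPM + 1) scale understates a change, and both intervals are wide. Without wildtype replicate 2 the log2 fold change of *Mei4* was 0.31.

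*Dmc1* (chr15:79561497-79605109), the meiosis-specific recombinase, was the only one of the 9 genes to lie above wildtype in both cKO samples. Its level was 33.8 and 27.4 TPM in the cKO samples and 12.4 and 22.9 TPM in the wildtype samples. The cKO samples were the 2 higher ones, although the gap between the wildtype replicates was itself 0.83 on the log2 scale. The log2 fold change was 0.81 (SE 0.380, 95% interval -0.09 to 1.72) and missed the threshold (limma adjusted p = 0.419). Wildtype replicate 1 left out, it was 0.40, and replicate 2 left out, 1.23.

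Both cofactors of DMC1 lay below wildtype without passing the threshold. *Psmc3ip* (chr11:101091823-101095436), which encodes HOP2, had the highest level of the 9 genes, at 124.5 and 192.5 TPM in the cKO samples against 279.5 and 299.4 TPM in the wildtype samples. The groups did not overlap, and the log2 fold change was -0.90 (SE 0.284, 95% interval -1.57 to -0.22, limma adjusted p = 0.250). With cKO replicate 1 alone it was -1.21 (limma adjusted p = 0.0637) and with cKO replicate 2 alone -0.59 (0.356), again with the spread of the wildtype pair only. Exons of *Psmc3ip* overlap those of *Mlx* on the opposite strand, with 385 of its 1818 exonic bases shared, and the library is not stated to keep strand, so reads there cannot be told apart. *Mlx* itself was at 16.5 and 10.7 TPM in the cKO samples and 20.7 and 24.9 TPM in the wildtype samples, far below *Psmc3ip* in each.

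*Mnd1* (chr3:84087933-84155786), the partner of HOP2, was measured at 14.3 and 11.7 TPM in the cKO samples against 16.0 and 28.2 TPM in the wildtype samples. Wildtype replicate 1 lay close to the cKO values, so the samples are apart by a small margin. The log2 fold change of -0.68 had a 95% interval of -1.63 to 0.27 (limma adjusted p = 0.527), and it was -1.07 when wildtype replicate 1 was left out and -0.29 when replicate 2 was. *Psmc3ip* and *Mnd1* encode the subunits of a heterodimer, yet their mRNA was not near parity: the ratio of *Psmc3ip* to *Mnd1* was 8.72 and 16.5 in the cKO samples and 17.5 and 10.6 in the wildtype samples. The ranges overlapped between genotypes (exact two-sided permutation p = 0.67).

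*Meiob* and *Spata22* encode the meiosis-specific complex on single-stranded DNA, whose subunits depend on each other in the mouse. *Meiob* (chr17:24804289-24839788) was measured at 30.0 and 23.4 TPM in the cKO samples against 45.8 and 68.3 TPM in the wildtype samples. The groups did not overlap, and the log2 fold change of -1.05 (SE 0.315, 95% interval -1.80 to -0.30) came just short of the threshold (limma adjusted p = 0.227).

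*Spata22* was measured at 21.3 and 27.1 TPM in the cKO samples against 68.1 and 79.0 TPM in the wildtype samples, or 24.2 ± 4.07 and 73.6 ± 7.71 TPM (SD, n = 2 each). It had the clearest separation of the 9 genes, with the lowest wildtype sample far above the highest cKO sample. The log2 fold change was -1.57 (SE 0.275, 95% interval -2.23 to -0.92, limma adjusted p = 0.0825), and it was -1.74 with cKO replicate 1 alone and -1.41 with cKO replicate 2 alone. Leaving out wildtype replicate 1 or 2 kept the direction (-1.68 and -1.47) and lost the call (limma adjusted p = 0.926 and 0.879), as it did for every tested gene by limma: both fits gave 0 lower and 0 higher calls, with 258 lower and 726 higher at an unadjusted p under 0.05 without wildtype replicate 1 and 267 and 815 without wildtype replicate 2.

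A second row of the table also bears the name Spata22. Its identifier (ENSMUSG00000069825) belongs in the GENCODE annotation to the readthrough gene *Gm49340*, which starts at the same base as *Spata22* (ENSMUSG00000112920, chr11:73329741-73346044) and runs on into *Olfr20*. It shares 1025 of the 1274 exonic bases of *Spata22*, so reads in them could be assigned to either row. It was listed at 1.57 and 1.09 TPM in the cKO samples and 1.30 and 3.40 TPM in the wildtype samples, which overlap. Adding both rows gave 22.9 and 28.2 TPM in the cKO samples against 69.4 and 82.4 TPM in the wildtype samples, and the call held (log2 fold change -1.54, limma adjusted p = 0.0834).

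The ratio of *Meiob* to *Spata22* was 1.40 and 0.864 in the cKO samples and 0.672 and 0.864 in the wildtype samples. These ranges meet, and no difference in the balance of the subunits was detectable beyond the spread between replicates (exact two-sided permutation p = 0.67, in a design whose smallest p is 0.33).

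*Brca2* (chr5:150522630-150570329), which encodes a loader of DMC1, differed least among the abundant members. Its level was 137.3 and 135.9 TPM in the cKO samples and 165.0 and 147.5 TPM in the wildtype samples. The groups were apart by a small margin, with a log2 fold change of -0.19 (95% interval -0.73 to 0.35, limma adjusted p = 0.805). This interval is the narrowest of the 9 genes and does not reach a 2-fold change in either direction. Over the settings tried the log2 fold change ran between -0.27 and -0.11.

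**Figure D2:**
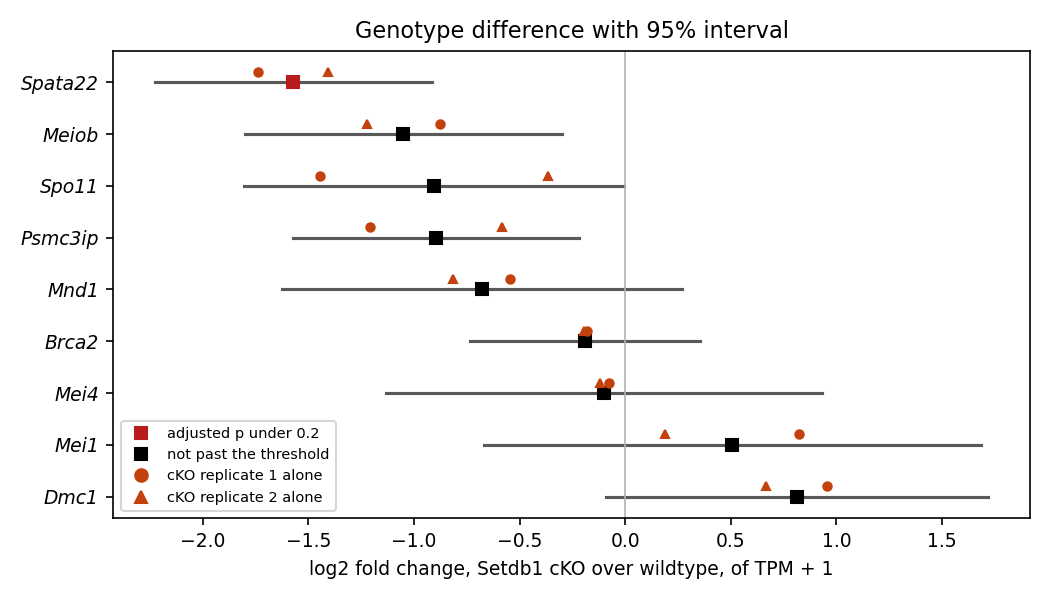
Log2 fold change of each of the 9 genes in *Setdb1* cKO over wildtype, with the 95% interval of the limma fit (squares and lines; red, adjusted p under 0.2) and the value of each cKO sample alone against the wildtype mean (orange circle, replicate 1; orange triangle, replicate 2). *Spata22* is farthest below 0 at -1.57, and the intervals of *Mei1*, *Mei4*, *Dmc1*, *Mnd1* and *Brca2* include 0.

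By level, the 9 genes spanned 125-fold in cKO and 190-fold in wildtype between their lowest and highest means, in TPM, which are per transcript length. In cKO the order was *Psmc3ip*, *Brca2*, *Spo11*, *Dmc1*, *Meiob*, *Spata22*, *Mnd1*, *Mei1*, *Mei4*, and in wildtype it was *Psmc3ip*, *Brca2*, *Spo11*, *Spata22*, *Meiob*, *Mnd1*, *Dmc1*, *Mei1*, *Mei4*. The order at the top and bottom was shared and the middle was not, where *Dmc1* stood at rank 4 in cKO and rank 7 in wildtype and *Spata22* at rank 6 in cKO and rank 4 in wildtype. Of neighbours in the wildtype order, the ranges of *Psmc3ip* and *Brca2* and of *Spata22* and *Meiob* overlapped in cKO. In wildtype those of *Spata22* and *Meiob* and of *Mnd1* and *Dmc1* overlapped. The cKO ranges of *Dmc1* and *Meiob* also overlapped, and those of *Dmc1* and *Spata22* were only just apart. Ranks 4 to 6 in cKO are therefore not settled. The summed level of the 9 genes was 406.4 and 498.6 TPM in the cKO samples against 682.3 and 753.8 TPM in the wildtype samples, most of it from *Psmc3ip* and *Brca2*.

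Ratios taken within a sample do not depend on how that sample was scaled. The pairs were chosen after the values had been seen, and with 2 samples against 2 the smallest exact two-sided permutation p is 0.33. The ratio of *Dmc1* to *Psmc3ip* was 0.271 and 0.143 in the cKO samples against 0.0445 and 0.0764 in the wildtype samples, 3.42-fold higher in cKO by the mean. The ranges did not overlap, and any 2 against 2 samples without overlap give p = 0.33 in the exact permutation test, so the test adds nothing here. Relative to *Brca2*, *Spata22* was at 0.155 and 0.199 in the cKO samples against 0.413 and 0.536 in the wildtype samples, while *Spo11* was at 0.25 and 0.542 in the cKO samples against 0.55 and 0.678 in the wildtype samples. *Spata22* was thus lower in cKO relative to a member that differed little, with the ranges well apart, and the ranges of *Spo11* nearly touched.

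**Figure D3:**
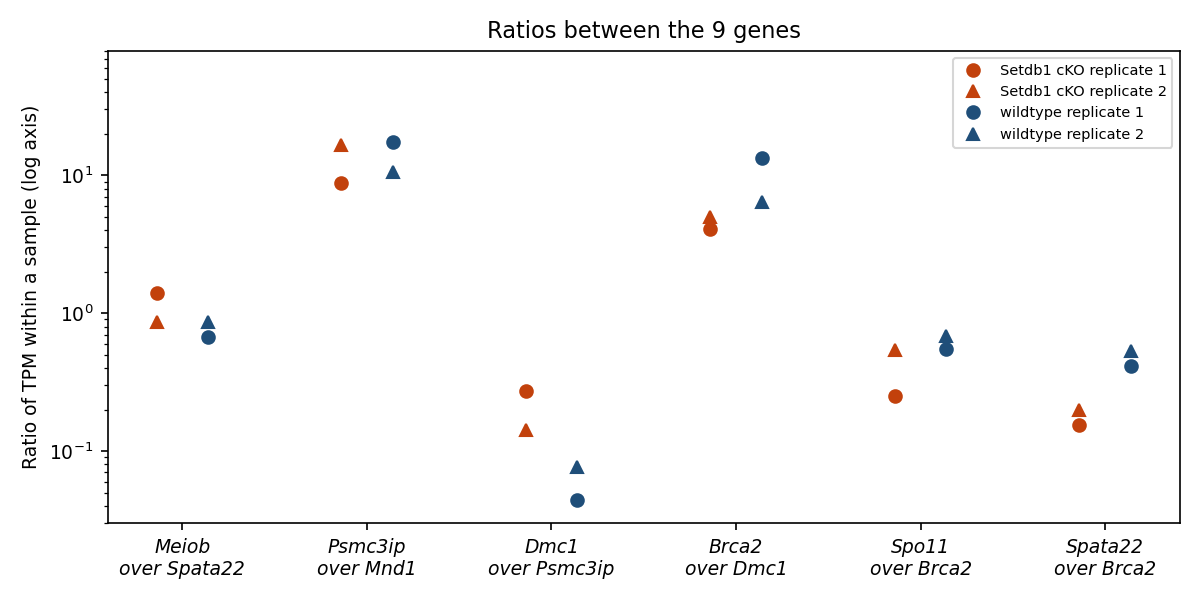
Ratio of the TPM of a pair of genes within each sample, on a log axis, with *Setdb1* cKO samples (orange) left of wildtype samples (blue); circles are replicate 1 and triangles replicate 2. The ratio of *Dmc1* to *Psmc3ip* is higher in both cKO samples, and the ratios within the MEIOB-SPATA22 and HOP2-MND1 pairs overlap between genotypes.

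Another 43 genes of the same pathway, all of them tested, gave 2 lower and 0 higher calls by limma (7 lower and 1 higher at an unadjusted p under 0.05). Both cKO samples lay below both wildtype samples for 13 of them and above for 8. Over all tested genes, 1.11% were called lower and 3.48% higher, and 18.1% lay below and 26.3% above in this way. At an unadjusted p under 0.05 (limma), 855 of all 19462 tested genes were lower and 1788 higher. The median log2 fold change of the 43 genes was -0.16. Among 7 other genes of break formation (median -0.30) none passed, with 1 lower and 0 higher at an unadjusted p under 0.05. *Ankrd31*, a partner of REC114 that directs breaks to the region shared by X and Y, came nearest at 25.0 and 46.0 TPM in the cKO samples against 69.6 and 78.0 TPM in the wildtype samples (log2 fold change -1.10, limma adjusted p = 0.244). With cKO replicate 1 alone its log2 fold change was -1.52 (limma adjusted p = 0.0431) and with cKO replicate 2 alone -0.67 (0.309). *Prdm9*, the methyltransferase that places the breaks, was at 19.4 and 20.7 TPM in the cKO samples and 14.6 and 12.9 TPM in the wildtype samples (log2 fold change 0.51, and 0.26 under quantile normalization, limma adjusted p = 0.576). *Rec114* was at 18.2 and 13.0 TPM in the cKO samples and 15.8 and 6.60 TPM in the wildtype samples, and *Atm*, the kinase that limits break number, was at 9.12 and 1.94 TPM in the cKO samples and 5.13 and 9.92 TPM in the wildtype samples. The last 2 genes overlapped between genotypes, and their direction turned when a sample was left out: the log2 fold change of *Rec114* was 0.54, and -0.032 without wildtype replicate 2, and that of *Atm* was -0.58, and 0.31 without cKO replicate 2.

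Neither the 8 genes of end resection (median 0.06) nor the 3 RPA subunits (median 0.03) gave a call, and 0 of them had an unadjusted p under 0.05. *Nbn*, a subunit of the nuclease complex that opens the ends, was at 31.6 and 38.7 TPM in the cKO samples and 23.1 and 22.0 TPM in the wildtype samples (log2 fold change 0.61, limma adjusted p = 0.425), and *Blm*, a helicase, had a log2 fold change of -0.47 (limma adjusted p = 0.582). *Rpa1* was at 120.2 and 193.1 TPM in the cKO samples and 137.9 and 130.8 TPM in the wildtype samples, and *Rpa2* was at 96.0 and 62.6 TPM in the cKO samples and 94.4 and 85.8 TPM in the wildtype samples. The cKO values enclosed those of wildtype in both, so RPA, the general coat of single-stranded DNA, showed no separation where both genes of its meiosis-specific counterpart, *Meiob* and *Spata22*, did. Whether these genes differ from each other in response was not tested.

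The RecA family and its partners (12 genes, median -0.30) held 1 lower call, with 4 lower and 0 higher at an unadjusted p under 0.05 (limma). *Rad54b*, which encodes a DNA translocase of homologous recombination, was at 18.3 and 12.0 TPM in the cKO samples against 50.6 and 39.5 TPM in the wildtype samples (log2 fold change -1.53, limma adjusted p = 0.134). This call was lost by limma without a trend (adjusted p = 0.216). The 13 genes of recombinase loading and BRCA complexes (median -0.03) also held 1 lower call. At an unadjusted p under 0.05 (limma), 2 of them were lower and 1 higher. The call was *Fignl1*, an AAA ATPase that acts in homologous recombination. It was at 37.0 and 65.1 TPM in the cKO samples against 119.2 and 115.6 TPM in the wildtype samples (log2 fold change -1.24, limma adjusted p = 0.174). That call was lost with cKO replicate 2 alone (-0.84, limma adjusted p = 0.222), under quantile normalization (0.238) and without a trend (0.305). Both calls were also lost without either wildtype replicate, where limma called no gene. *Tex15*, needed to load DMC1 in the mouse, was at 60.4 and 31.1 TPM in the cKO samples and 18.1 and 23.5 TPM in the wildtype samples (log2 fold change 1.04, limma adjusted p = 0.318), both cKO samples above both wildtype samples. With cKO replicate 1 alone its log2 fold change was 1.51 (limma adjusted p = 0.0716) and with cKO replicate 2 alone 0.57 (0.483). *Brca1* was at 11.8 and 7.21 TPM in the cKO samples and 7.71 and 6.73 TPM in the wildtype samples (limma adjusted p = 0.839), and its small positive difference turned under quantile normalization.

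**Figure D4:**
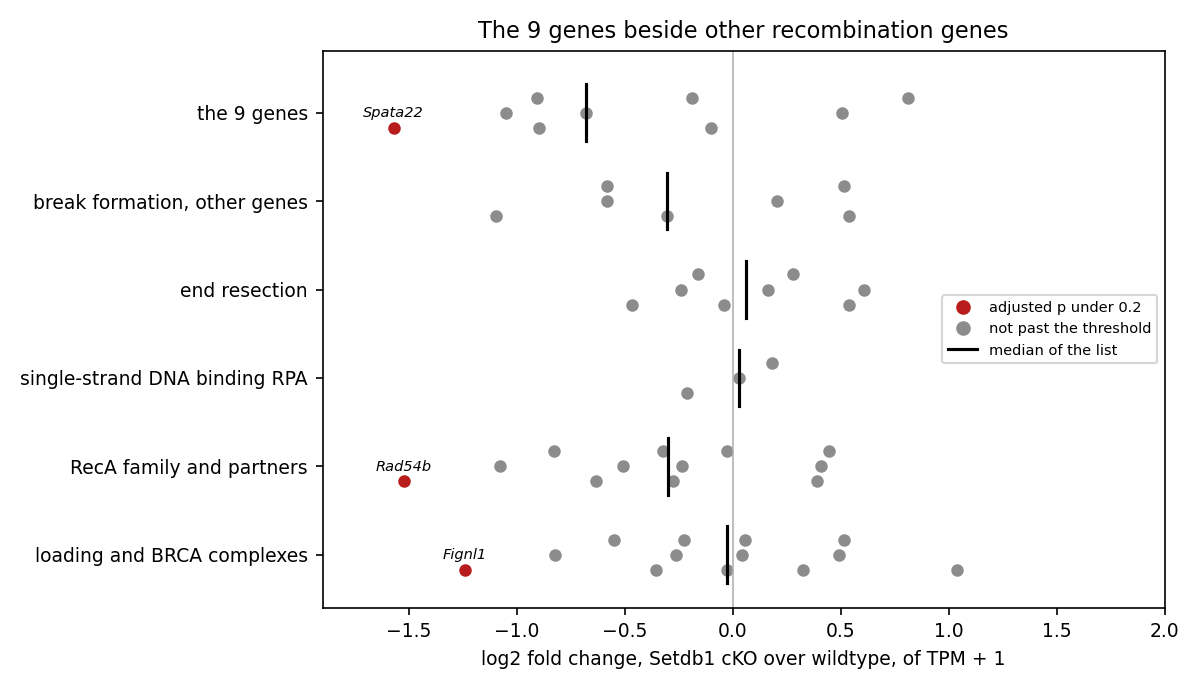
Log2 fold change in *Setdb1* cKO over wildtype of the 9 genes and of 43 other recombination genes grouped by step; each point is a gene, red points have a limma adjusted p under 0.2 and black lines are list medians. *Spata22*, *Rad54b* and *Fignl1* are the only red points, all below 0.

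*Setdb1* itself was at 28.7 and 37.2 TPM in the cKO samples against 56.9 and 59.3 TPM in the wildtype samples (log2 fold change -0.81, limma adjusted p = 0.269), and the deletion removes only part of the transcript. Across genes, log2(TPM + 1) correlated at 0.923 between the cKO samples and 0.974 between the wildtype samples, and cKO replicate 1 stood apart from wildtype (0.876 and 0.886) more than cKO replicate 2 did (0.944 and 0.952). Each of the 12 pachytene markers was at 0.5 TPM or more in every sample. They summed to 3620 and 5980 TPM in the cKO samples and 5240 and 6020 TPM in the wildtype samples. The largest part of each sum was *Ldhc* (1902 and 3077 TPM in the cKO samples, 2524 and 3001 TPM in the wildtype samples). *Spag6* was near the floor in wildtype (1.58 and 0.527 TPM, against 108.9 and 8.15 TPM in the cKO samples). The median log2 fold change of the 12 was 0.23. By limma 4 of the 12 were called higher (*Ccna1*, *Pgk2*, *Spag6* and *Adam3*) and 0 lower, against 3.48% and 1.11% of all tested genes. An unadjusted p under 0.05 (limma) was reached by 4 that were higher and by 2 that were lower, *Piwil1* and *Hspa2*. Over all tested genes, 1788 were higher and 855 lower in this way. *Piwil1* had the largest fall of the list, at 27.2 and 190.0 TPM in the cKO samples against 444.5 and 487.9 TPM in the wildtype samples. Its log2 fold change was -2.67, with -4.05 for cKO replicate 1 alone and -1.29 for cKO replicate 2 alone. The list was mixed, with a negative log2 fold change for 6 of the 12. Its median was -0.53 with cKO replicate 1 alone and 0.70 with cKO replicate 2 alone. Both cKO samples lay below both wildtype samples for 4 of the 12 (18.1% of all tested genes) and above for 5 (26.3%). The 5 preleptotene to zygotene markers summed to 1770 and 1380 TPM in the cKO samples and 1970 and 2510 TPM in the wildtype samples. This sum is mostly *Tex101* (1121 and 989.5 TPM in the cKO samples, 1651 and 2068 TPM in the wildtype samples). *Tex101* was the only one of the 5 with a negative log2 fold change, so the sum does not describe the rest of the list. The list's median was 0.51. *Gm4969* (*Meiosin*) was the 1 gene of the 5 called higher, against 3.48% of all tested genes. The 10 spermatogonial markers summed to 474 and 298 TPM in the cKO samples and 179 and 295 TPM in the wildtype samples (0 called). The 10 spermatid markers summed to 898 and 86.9 TPM in the cKO samples against 37.2 and 44.4 TPM in the wildtype samples (2 higher). In adult cKO testes the paper found germ cells blocked at midpachynema and no spermatids. It reads the spermatid genes that were higher in cKO cells as expressed prematurely. Which cells this marker RNA came from was not tested here. The 5 Leydig markers summed to 760 TPM in cKO replicate 1 and to between 91.6 and 240 TPM in the other samples. The 8 Sertoli markers summed to 1580 and 1460 TPM in the cKO samples and 1650 and 1350 TPM in the wildtype samples. Most of each sum is *Clu* (1169 and 1067 TPM in the cKO samples, 1151 and 999 TPM in the wildtype samples). The sorted cells thus held RNA of Sertoli cells in all 4 samples. Of the 8 genes 0 were called, with both cKO samples below both wildtype samples for 2 and above for 2. *Spo11* and *Psmc3ip* were lowest in cKO replicate 1, the sample with the highest sums of spermatid and Leydig markers, whereas *Meiob* and *Mnd1* were lowest in cKO replicate 2. *Spata22* lay at a similar level in both. The part of stage and cell makeup in these differences was not tested.

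**Figure D5:**
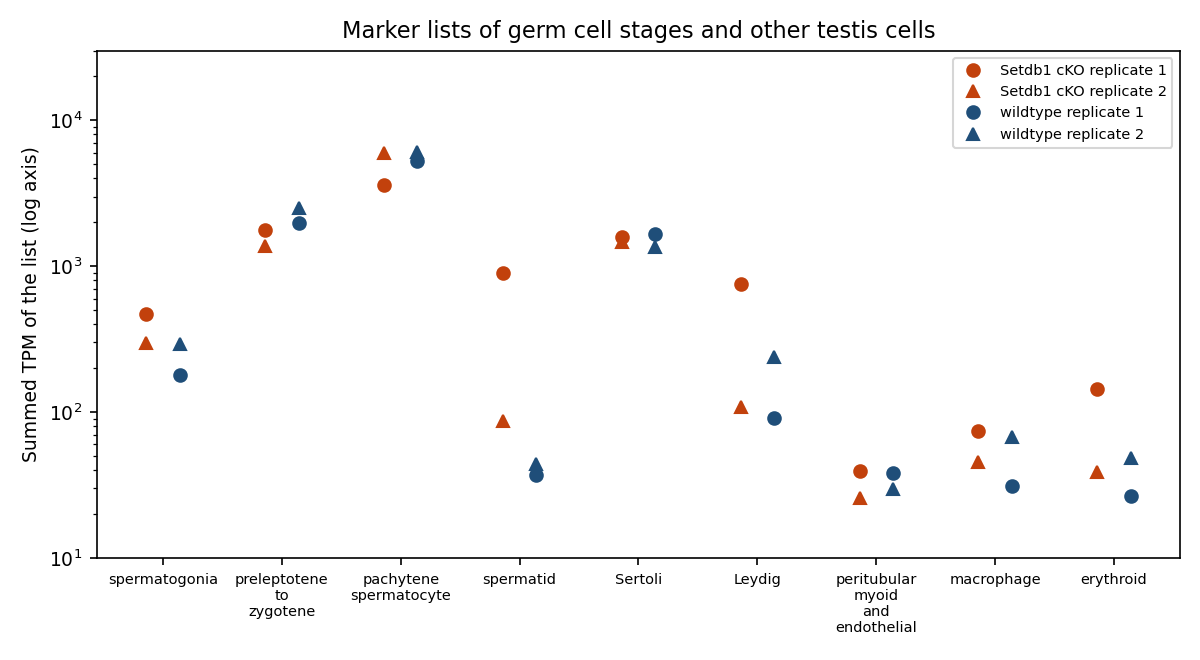
Summed TPM of each marker list in every sample, on a log axis, with *Setdb1* cKO samples (orange) left of wildtype samples (blue); circles are replicate 1 and triangles replicate 2. Spermatid markers reach 898 TPM in cKO replicate 1 against 37.2 and 44.4 TPM in wildtype, and the sum of Sertoli markers, mostly *Clu*, lies at a like level in all 4 samples.

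The genes whose pattern over the 4 samples was most like the mean of the 9, by Euclidean distance of centred log2(TPM + 1) among protein-coding genes that averaged 10 TPM or more in one of the genotypes, were *Leo1* (distance 0.0275), *Aurkaip1* (0.0445) and *Cyb5b* (0.0461). *Leo1*, a subunit of the PAF1 transcription complex, was at 33.9 and 35.5 TPM in the cKO samples against 41.4 and 54.5 TPM in the wildtype samples. With 4 samples such likeness describes the values only.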

How the data were processed

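RNA-seq libraries (Smart-seq2, 75-base single reads) of sorted pachytene cells were quantified by the authors with kallisto 0.44.0 on GRCm38 and compared with sleuth 0.30.0. The deposited per-sample values are normalized TPM, treated as a signal because the deposited columns sum to 996166 and 946174 (*Setdb1* cKO) and 1109725 and 942186 (wildtype). TPM hold no read counts, so depth and counting error are unknown. The 6 columns of the authors' own comparison (p-value, q-value, effect as a natural log, and its error, a score) were not used. ChIP-seq samples were not analysed here.

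Protein-coding genes with a genotype mean above 0.1 TPM were compared as log2(TPM + 1) by a two-sided moderated fit (limma 3.58.1, R 4.3.3; eBayes with a mean trend) with Benjamini-Hochberg adjustment over 19462 genes and an adjusted p under 0.2, the threshold of the study. The fit was tested on simulated data. Sleuth was not rerun, since it needs reads. The members and lists were chosen with earlier results of these data known. Genes named are the 9 members, *Setdb1*, *Brca1*, *Prdm9*, *Rec114*, *Atm*, the called genes of each pathway list or, with fewer than 2, those of smallest p, and the 3 genes of nearest pattern; 1 further gene of this rule is not reported here. *Mlx*, *Clu*, *Tex101*, *Gm4969*, *Ldhc*, *Piwil1*, *Hspa2* and the called pachytene markers were named after their values were seen. The 13 other settings tried were pseudocounts of 0.1 and 0.5, no filter, a filter at 1 TPM, all biotypes, median-ratio and quantile scaling, eBayes without a trend, each sample left out, and a replicate block. Marker lists not given in the report, of peritubular myoid and endothelial cells (6 genes), macrophages (5) and erythroid cells (4), held no call. Summed, they lay at 39.2 and 25.6, 74.5 and 45.6, and 145 and 38.7 TPM in the cKO samples, and at 38.5 and 29.6, 31.1 and 67.7, and 26.8 and 48.5 TPM in the wildtype samples. Gene positions are from GENCODE M21 (GRCm38) and promoter sequences from RefSeq (GRCm38.p6). Plots used Python 3.11.15 and matplotlib 3.10.9.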

Additional observations from a re-analysis of the deposited data

How the results depend on the processing

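Of the 9 genes, *Spata22* was called lower in 11 of the 13 other settings and, in a setting chosen after seeing the data, with the readthrough row added; its log2 fold change ran between -1.74 and -1.41. The count of members called lower was 2 with the replicate block (adding *Psmc3ip*, adjusted p = 0.190, beside 318 lower calls over all genes) and between 0 and 3 when a sample was left out, the 3 being *Spata22*, *Psmc3ip* and *Spo11* without cKO replicate 2. The count of members called higher was 0 in every setting. The median log2 fold change of the members was -0.86 under quantile normalization and between -0.95 and -0.29 when a sample was left out. Of the 43 other genes, 0 were lower without a trend, 1 under quantile normalization and between 0 and 5 when a sample was left out; those higher were between 0 and 1. Directions turned for *Brca1* under quantile normalization (-0.021) and, when a sample was left out, for *Mei4* (-0.51 to 0.31), *Rec114* (-0.032 to 1.11), *Atm* (-1.48 to 0.31), *Rpa1* (-0.16 to 0.52), *Rpa2* (-0.52 to 0.092) and the readthrough row (-0.92 to 0.0068). Over all genes, the lower calls were 56 without a trend, 136 and 1251 without cKO replicates 1 and 2, and the higher calls 392 without a trend, 430 under quantile normalization, 1091 with the replicate block and 2586 without cKO replicate 2; without either wildtype replicate both counts were 0. Same-numbered samples did not deviate together (r = 0.0252 across genes, 2 pairs), so the numbers were not taken as pairs. With no read counts, how far depth limits the low values of *Mei1* and *Mei4* is unknown.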
